A study of Mus musculus with 14 samples.

Results

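The 9 genes described here encode transcription factors of the lateral plate mesoderm and its derivatives: the zinc finger factors Gata2, Gata3, Gata4, Gata5 and Gata6, the basic helix-loop-helix (bHLH) factors Hand1 and Hand2, and the forkhead factors Foxf1 and Foxf2. They were set by name, with no threshold on a measured value, although earlier results of these data were known, and all 9 were found among the 24454 genes of the count table by their Entrez identifiers. The table holds RNA-seq read counts of 14 libraries from 5 cell populations, which were sorted by FACS (fluorescence-activated cell sorting) from dissociated and pooled mouse forelimb buds. All populations came from embryos of mixed Swiss Albino background and either sex, which carried an EGFP reporter inserted at the Sox9 gene (Sox9 IRES-EGFP), so that S9+ cells are green and S9- cells are not. Dead cells and cells with surface markers of blood, endothelium or epithelium were removed during sorting.

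S9-JAG1+ cells carried the NOTCH ligand JAG1 on their surface and S9-Pαhi cells high levels of the receptor PDGFRα. Both are called limb bud mesenchymal progenitors (LMPs) and were sampled in 3 libraries each. S9+Pαhi cells are the osteochondrogenic progenitors (OCPs, 3 libraries). The S9+COL2+ libraries (3) hold cells with high Col2a1, the chondroblasts. S9-SCA-1+ cells, with the surface antigen SCA-1, were sampled in 2 libraries, which carry the replicate numbers 2 and 3. They too were sorted from PDGFRα-positive mesenchymal cells, and the study proposes that they include myogenic progenitors. For short, only the populations other than S9-SCA-1+ are called mesenchymal below. The labels give E10.5 for all populations except the chondroblasts, which were taken at E11.5, so that population and stage cannot be told apart in any comparison with chondroblasts. No source says that the libraries of one population came from separate litters, and the p-values measure the spread between these libraries.

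GATA factors bind short DNA motifs with the core letters of their name through zinc fingers, and Gata4, Gata5 and Gata6 are best known for their roles in heart and endoderm, while Gata2 and Gata3 act in blood, the nervous system and several epithelia. HAND proteins bind E-boxes together with other bHLH proteins. Hand2 marks the posterior mesenchyme of the early limb bud, where it acts upstream of Shh, the gene of the posterior signal, and Gata4 and Gata6 are known to restrict Shh in anterior mesenchyme. Foxf1 and Foxf2 are genes of the visceral (splanchnic) mesoderm that lie downstream of hedgehog signals, and Hand1 is a gene of heart, extraembryonic and ventral body wall mesoderm. Several of these genes are therefore also expressed in tissue that adjoins the forelimb bud, such as the flank and the coelomic lining.

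In RefSeq on GRCm38 (mm10), Hand2 lies on chromosome 8 from 57320983 to 57324517, with the divergent long non-coding RNA Hand2os1 starting 123 bases upstream on the other strand. Foxf1 lies further along the same chromosome, from 121084386 to 121088154, with the non-coding RNA Fendrr starting 1275 bases upstream, also on the other strand. Foxf2 is on chromosome 13 (31625816 to 31631406), Hand1 on chromosome 11 (57828713 to 57832147), Gata2 on chromosome 6 (88193891 to 88207032) and Gata4 on chromosome 14 (63198914 to 63271712). Gata3 (9857078 to 9887953) and Gata5 (180325088 to 180335503) share chromosome 2. The position of Gata6 is given with its values. The counts cover all exons of a gene. Whether they were made with regard to strand is not stated, and 19.6% of the exon bases of Hand2 overlap Hand2os1 on the opposite strand in GENCODE. For Gata5 this share was 7.87%, for Foxf2 4.15%, for Foxf1 4.06%, for Gata3 3.9% and for Gata6 1.43%, whereas Gata2, Gata4 and Hand1 had no antisense exon overlap.

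The 250 bases upstream of the RefSeq start site are shown for 3 genes that differed in where they were high: Hand2, the most abundant of the 9, Foxf2, which was highest in chondroblasts, and Gata3, which was highest in S9-SCA-1+ cells. They read 5′ to 3′ in the direction of each gene, with the build GRCm38.p6 and the positions chr8:57320733-57320982 on the plus strand for Hand2, chr13:31625566-31625815 on the plus strand for Foxf2 and chr2:9878601-9878850 on the minus strand for Gata3. Capitals mark 5 motifs, each searched on both strands. The letters AGATAA were taken as one GATA motif and the letters TGATAA as the other, CANNTG is the pattern of an E-box, the forkhead core was searched for as TAAACA, and a TATA box was searched for with the letters TATAAA.
Hand2: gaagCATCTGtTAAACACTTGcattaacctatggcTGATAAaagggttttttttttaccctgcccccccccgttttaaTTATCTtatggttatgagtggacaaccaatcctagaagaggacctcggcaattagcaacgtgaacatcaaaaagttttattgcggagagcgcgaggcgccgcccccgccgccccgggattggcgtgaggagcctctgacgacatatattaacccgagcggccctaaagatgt
Foxf2: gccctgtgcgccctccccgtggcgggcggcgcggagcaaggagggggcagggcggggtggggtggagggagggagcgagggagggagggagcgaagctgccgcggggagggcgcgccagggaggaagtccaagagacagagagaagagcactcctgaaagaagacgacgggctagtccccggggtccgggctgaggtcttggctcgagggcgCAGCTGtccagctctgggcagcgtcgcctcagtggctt
Gata3: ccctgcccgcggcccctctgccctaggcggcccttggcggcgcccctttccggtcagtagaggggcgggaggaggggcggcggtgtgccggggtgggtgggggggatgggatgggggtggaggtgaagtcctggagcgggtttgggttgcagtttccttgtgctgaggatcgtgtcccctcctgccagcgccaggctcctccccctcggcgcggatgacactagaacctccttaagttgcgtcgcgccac
The Hand2 window held 1 AGATAA (read on the minus strand as TTATCT, from 172 bases before the start site), 1 TGATAA (215 bases before it), 2 CANNTG and 1 TAAACA, the last overlapping the second E-box. These letters all lie beyond the start of Hand2os1, within its annotated span. The Foxf2 window held 1 CANNTG and the Gata3 window none of the 5 motifs. Among all 32851 RefSeq promoter windows of this length, 9.99% held AGATAA, 7.94% TGATAA, 66.2% CANNTG, 12% TAAACA and 12.4% TATAAA. The GC content was 49.2% for Hand2, 71.6% for Foxf2 and 70% for Gata3. The Gata3 window belongs to an annotated start inside the gene's span. Of the 9 genes, 5 matched the promoter table (also Gata2 and Gata5).

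Each library had between 20316583 and 29162751 counted reads. Levels are CPM, reads per 1e+06 counted reads, on library totals scaled by the TMM method of edgeR, and a library with up to 3 counts of a gene, or 0.101 to 0.149 CPM, was taken to be at the limit of detection (counting error only). For the sorting genes, Sox9 and Col2a1 were higher in OCPs and chondroblasts, Jag1 was higher in S9-JAG1+ cells and Ly6a, which encodes SCA-1, in S9-SCA-1+ cells, each compared with the 4 other populations. Jag1 was also higher in chondroblasts (log2 fold change 1.88). Pdgfra, which encodes PDGFRα, was called higher in OCPs (1.59) and chondroblasts (1.92), but not in S9-Pαhi LMPs (0.72, adjusted p = 0.00272), and lower in S9-SCA-1+ cells (-3.89). All 9 genes of the myoblast list were called higher in the S9-SCA-1+ cells. Bulk RNA cannot tell fewer expressing cells from less RNA per cell.

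S9-JAG1+ replicate 1 differed more from the other 2 libraries of its population than these did from each other. Over tested genes, chi-square per degree of freedom of the counts was 18.1 and 16.8 against them and 7.86 between them. It was not the most divergent library of the series, as OCP replicates 1 and 2 gave 77.5 and OCP replicates 2 and 3 gave 40.7. Of 12981 genes, taken where the mean level reached 1 CPM, 87 (0.67%) were over 2-fold higher in S9-JAG1+ replicate 1 than the mean of the other 2. Over 2-fold lower were 40 (0.5 CPM added). This count was made for S9-JAG1+ replicate 1 alone. Wnt2, Upk3b and Tbx20, genes of visceral mesoderm, coelomic lining and heart, were also higher there, the last 2 with means under 1 CPM and so not among the genes counted. Wnt2 reached 15.2 CPM against 1.68 and 2.34 CPM, Upk3b 2.10 against 0.210 and 0.515 CPM, and Tbx20 1.76 against 0.168 and 0.0396 CPM. Over the whole lists, 10 of 15 coelomic, 8 of 12 splanchnic and 7 of 21 cardiac genes were above both other libraries. Their summed levels were 132 against 112 and 129 CPM, 46.7 against 22.2 and 24.1 CPM, and 14.4 against at most 11.8 CPM. Of the other lists, 10 of 16 anterior limb bud genes were above both (sum 1453 against 1219 and 1302 CPM). The share of all genes above both was not determined, so none of these counts can be set against it. The posterior and SHH genes (3996 against 4205 and 4645 CPM) and the sorting genes (529 against 611 and 671 CPM) had lower sums than in both other libraries. The defining markers Msln and Upk1b were at 0 in all 3 S9-JAG1+ libraries, and Nkx2-5 reached 0.0856 CPM in replicate 1. S9-SCA-1+ replicate 3 held more blood transcripts, with a sum of 4118 CPM over 16 genes, against 146 CPM in replicate 2 and at most 101 CPM in the other libraries.

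Hand2 was by far the most abundant of the 9 genes in every population. Per kilobase of exon its mean level was 177 CPM in S9-JAG1+ LMPs, 139 in S9-Pαhi LMPs, 126 in chondroblasts, 85.4 in OCPs and 9.03 in S9-SCA-1+ cells. Gata6 came next in S9-JAG1+ LMPs (5.82 CPM per kilobase, with 3.18 and 3.36 in replicates 2 and 3), S9-Pαhi LMPs (2.69) and OCPs (1.12). In chondroblasts Hand1 (1.41), Foxf2 (1.34) and Gata6 (1.30) lay close together, and in S9-SCA-1+ cells Gata3 was second with 1.81 CPM per kilobase. The remaining levels were all under 2 CPM per kilobase. Hand2 held 92.2% to 96.1% of all reads counted for the 9 genes in the libraries other than S9-JAG1+ replicate 1 (86.0%) and the S9-SCA-1+ libraries (71.6% and 61.2%).

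**Figure D1:**
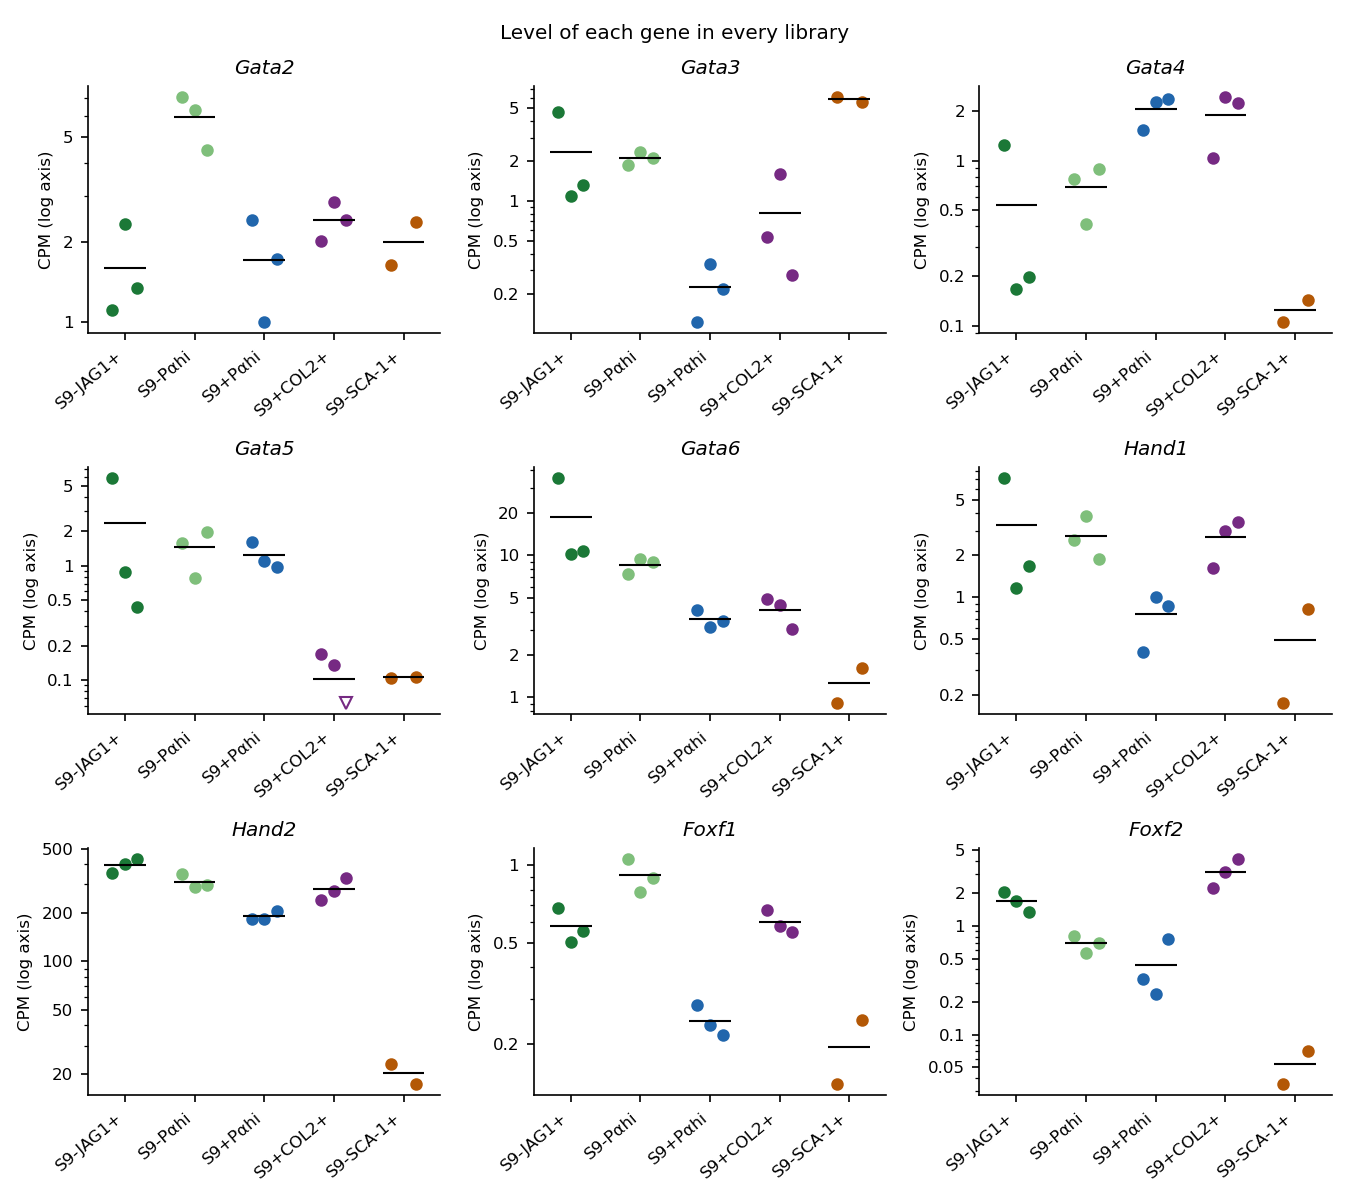
Level of each of the 9 genes (CPM, log axis) in the 14 libraries, by population. Points are libraries in the order of their replicate numbers and lines the means. The open triangle marks a library without reads. Hand2 lies between 184 and 430.0 CPM in the 12 libraries outside the S9-SCA-1+ population, and the first S9-JAG1+ point stands above the other 2 for Gata3, Gata4, Gata5, Gata6 and Hand1.

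One model was fitted to all 14 libraries with edgeR's quasi-likelihood test, and genes with a Benjamini-Hochberg adjusted p up to 0.1 that differed by 1.2 or more on the log2 scale were called. The study used the same 2 numbers as limits, without stating whether its p was adjusted. All 9 genes passed the filter on low counts, with which 15125 genes were tested. Each population was set against the mean of the 4 others. In S9-JAG1+ LMPs 5 of the 9 genes were called higher (Gata5, Gata6, Hand1, Hand2 and Foxf2) and none lower, whereas 2.88% of all tested genes were called higher and 7.7% lower (10.6% together). In S9-Pαhi LMPs 2 were higher (Gata2 and Foxf1) and none lower, beside 1.53% and 2.31% of all genes (3.84% together). In OCPs 1 was higher (Gata4) and 1 lower (Gata3), beside 3.37% and 1.64% (5.01% together). In chondroblasts 2 were higher (Gata4 and Foxf2) and 1 lower (Gata5), beside 11% and 1.71% (12.7% together). In S9-SCA-1+ cells 7 of the 9 genes were called lower, Gata3 was called higher, and Gata2 was not called (log2 fold change -0.32), beside 4.46% of all genes called higher and 6.8% lower (11.3% together). Without S9-JAG1+ replicate 1, 3 of the 5 calls in S9-JAG1+ LMPs were left (Gata6, Hand2 and Foxf2) and Gata4 was called lower. Of all 15116 genes tested in that fit, 450 were called higher in S9-JAG1+ LMPs and 1190 lower. In the same fit S9-Pαhi LMPs had 5 genes higher (Gata5, Gata6 and Hand1 in addition), beside 247 of all genes. OCPs had 2 higher (Gata5 in addition) beside 518, and chondroblasts 3 (Hand1 in addition) beside 1684. The median log2 fold change of the 9 genes was 1.35 in S9-JAG1+ LMPs, 1.03 in S9-Pαhi LMPs, -0.58 in OCPs, 0.59 in chondroblasts and -2.47 in S9-SCA-1+ cells, while over all tested genes it lay between -0.01 and 0.05. The median in S9-JAG1+ LMPs was 0.39 when their replicate 1 was left out, and the medians of S9-Pαhi LMPs and chondroblasts (0.62) were then both above it.

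**Figure D2:**
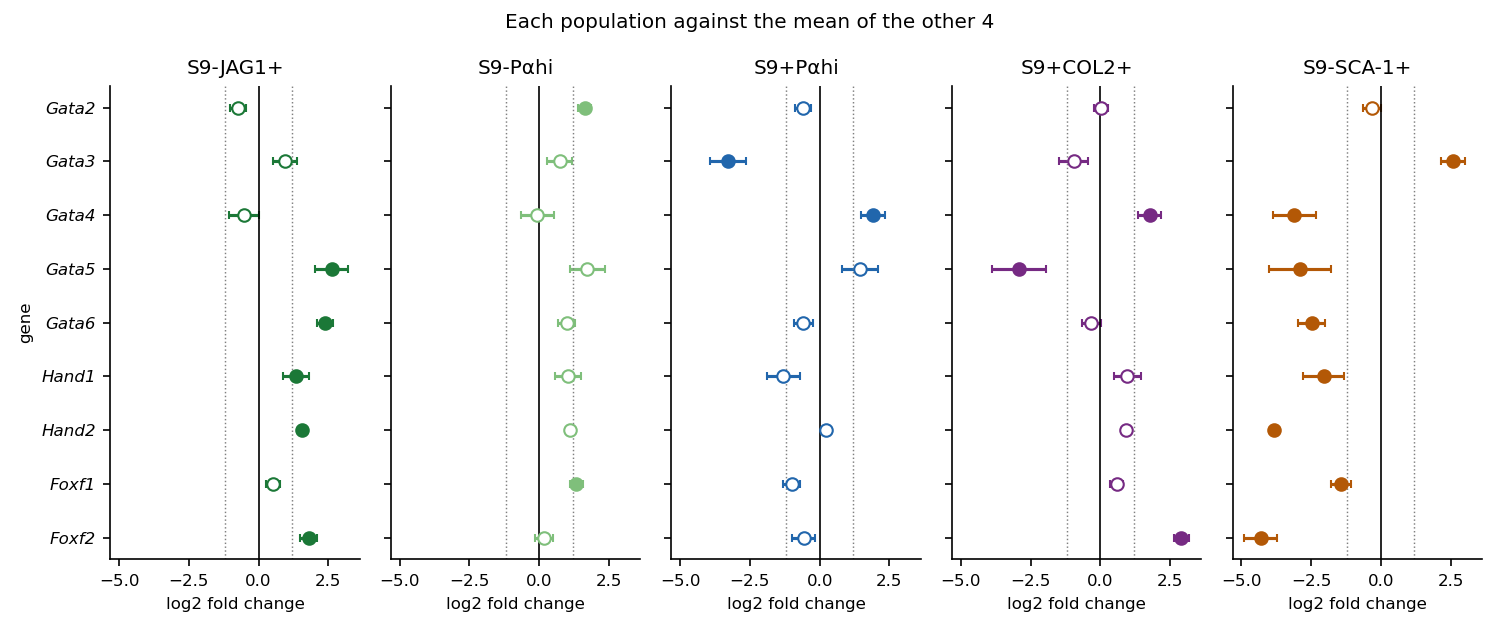
Log2 fold change of each gene in each population relative to the 4 others, with its standard error as a bar. Filled points were called, and the dotted lines mark a log2 fold change of 1.2 in either direction. In S9-SCA-1+ cells all points but Gata2 and Gata3 lie left of the left-hand line. Foxf1 is nearest to it, at -1.43 (SE 0.35), and Foxf2 at -4.31 and Hand2 at -3.82 lie furthest from it.

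The S9-SCA-1+ cells, with their low levels, weigh as much in each mean as any other population. Each of the remaining 4 populations was therefore also set against the mean of the other 3, an alternative chosen after the data had been seen. The split of the calls changed from 10 higher and 2 lower to 7 higher and 7 lower. OCPs now had 5 of the 9 genes lower (Gata3, Gata6, Hand1, Foxf1 and Foxf2) and Gata4 higher, beside 1.71% of all genes lower and 2.69% higher (4.4% together). S9-JAG1+ LMPs had Gata3, Gata5 and Gata6 higher (2.83% of all genes) and Gata4 lower (9.26%; 12.1% together). S9-Pαhi LMPs had Gata2 and Gata3 higher (1.12%; 3.81% in both directions), and chondroblasts had Foxf2 higher (10.6%) and Gata5 lower (1.36%; 12% together). Without S9-JAG1+ replicate 1 the counts were 7 higher and 6 lower, but for S9-JAG1+ LMPs Gata4 alone was called (lower), Gata6 was not called lower in OCPs, and Gata5 was called higher in S9-Pαhi LMPs and OCPs and Gata4 in chondroblasts. Hand2 was called in none of these 4 comparisons, as its log2 fold changes lay between -0.77 and 0.63 with all libraries.

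Hand2, the posterior limb bud factor, was high in all 4 mesenchymal populations and low in S9-SCA-1+ cells. Its level was 353, 401 and 430.0 CPM in S9-JAG1+ LMPs and 346, 288 and 299 CPM in S9-Pαhi LMPs. OCPs had 184, 184 and 205 CPM, and chondroblasts 241, 273 and 327 CPM. The S9-SCA-1+ libraries had 23.1 and 17.3 CPM, below every other library. The S9-JAG1+ libraries were above all others, and the OCP libraries were below those of the other mesenchymal populations. Its log2 fold change relative to the 4 other populations was 1.54 in S9-JAG1+ LMPs (SE 0.09, adjusted p = 1.9e-08; 1.62 without replicate 1) and -3.82 in S9-SCA-1+ cells (SE 0.16, adjusted p = 3.38e-10).

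Between the mesenchymal populations, all differences of Hand2 stayed under the limit for the fold change. The largest was that between S9-JAG1+ LMPs and OCPs, with a log2 fold change of 1.05 (SE 0.13, adjusted p = 1.97e-05). S9-Pαhi LMPs exceeded OCPs by 0.70 (SE 0.13, adjusted p = 0.00231) and chondroblasts exceeded OCPs by 0.56 (log2 fold change of OCPs against chondroblasts -0.56, SE 0.13, adjusted p = 0.00576). In the order of levels, S9-JAG1+ and S9-Pαhi LMPs differed by 0.34 (SE 0.13, adjusted p = 0.0687). S9-Pαhi LMPs and chondroblasts, the next neighbours, differed by 0.15 (SE 0.13, adjusted p = 0.356), which is within their spread. The 4 contrasts with S9-SCA-1+ cells were called, with log2 fold changes of 3.24 to 4.29.

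Hand2os1, transcribed away from Hand2 from the start site shown above, did not keep a fixed proportion to Hand2. Its levels were 8.56, 10.2 and 9.55 CPM in S9-JAG1+ LMPs, 12.4, 12.2 and 11.1 CPM in S9-Pαhi LMPs, and 4.50, 3.66 and 4.45 CPM in OCPs. Chondroblasts had 10.4, 12.6 and 14.0 CPM and S9-SCA-1+ cells 0.944 and 0.855 CPM. Hand2os1 was thus highest in chondroblasts and S9-Pαhi LMPs, where it was called higher with log2 fold changes of 1.44 (SE 0.11, adjusted p = 8.38e-08) and 1.37 (SE 0.11, adjusted p = 1.25e-06). From OCPs to chondroblasts it differed by 1.55 on the log2 scale (OCPs against chondroblasts -1.55, SE 0.14, adjusted p = 5.91e-06), and Hand2 by 0.56 in the same contrast.

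The number of Hand2 reads for each Hand2os1 read fell into 2 ranges. It was 39.4 to 45.0 in the S9-JAG1+ libraries and 40.9 to 50.2 in OCPs. It was 23.6 to 27.8 in S9-Pαhi LMPs, 21.6 to 23.4 in chondroblasts and 20.2 to 24.4 in S9-SCA-1+ cells. The libraries of the first pair of populations did not overlap those of the other 3 in this ratio. The ratio was looked at after the levels were seen and was not tested. In RefSeq, whose exons were counted, the genes lie 123 bases apart and do not overlap. Where GENCODE places Hand2os1 exons over Hand2, reads of either transcript may have been counted for Hand2, as use of strand is not stated.

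**Figure D3:**
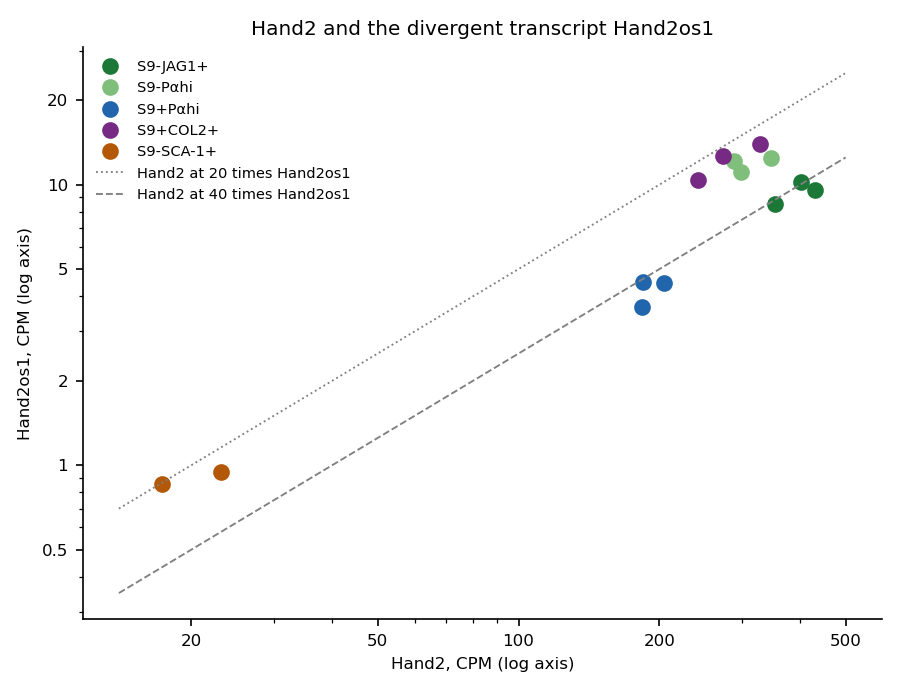
Hand2 and Hand2os1 in the 14 libraries (CPM, both axes log), coloured by population. The dotted and dashed lines mark 20 and 40 Hand2 reads for each Hand2os1 read. S9-JAG1+ LMPs and OCPs lie along the dashed line (39.4 to 50.2), and the other 3 populations nearer to the dotted line (20.2 to 27.8).

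Hand1, the paralog of Hand2, was expressed at a much lower level and had another order. Its level was 7.11, 1.17 and 1.66 CPM in S9-JAG1+ LMPs, and 2.56, 3.80 and 1.89 CPM in S9-Pαhi LMPs. OCPs had 0.406, 0.999 and 0.868 CPM, chondroblasts 1.61, 2.98 and 3.46 CPM, and S9-SCA-1+ cells 0.175 and 0.819 CPM. The S9-JAG1+ mean was set by replicate 1, and the other 2 libraries of this population lay under the lowest S9-Pαhi library. The call in S9-JAG1+ LMPs (log2 fold change 1.35, SE 0.47, adjusted p = 0.031) was lost without replicate 1 (0.14, adjusted p = 0.833) and also without S9-SCA-1+ replicate 2. S9-Pαhi LMPs and chondroblasts both exceeded OCPs, with a log2 fold change of 1.87 (SE 0.67, adjusted p = 0.0807) for the LMPs and with OCPs against chondroblasts at -1.82 (SE 0.66, adjusted p = 0.057). The first of these calls was lost when any one of its 6 libraries was left out, and the second without OCP replicate 1 or 3 or chondroblast replicate 2 or 3. S9-Pαhi LMPs and chondroblasts differed by 0.05 (SE 0.59, adjusted p = 0.952). The lower level in S9-SCA-1+ cells (-2.05, adjusted p = 0.0376) was not called without S9-SCA-1+ replicate 2 (-1.33, adjusted p = 0.305).

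Gata6, on chromosome 18, overlaps the divergent transcript Gata6os over 58 bases. It was the most abundant GATA gene per kilobase in all populations but the S9-SCA-1+ cells and, like Hand2, was highest in S9-JAG1+ LMPs. It was at 34.9, 10.1 and 10.7 CPM in S9-JAG1+ LMPs and at 7.36, 9.44 and 9.02 CPM in S9-Pαhi LMPs. OCPs had 4.14, 3.14 and 3.47 CPM, chondroblasts 4.91, 4.48 and 3.02 CPM, and S9-SCA-1+ cells 0.909 and 1.60 CPM. All S9-JAG1+ libraries were above all others and both S9-SCA-1+ libraries below, while OCPs and chondroblasts overlapped. The log2 fold change in S9-JAG1+ LMPs was 2.38 (SE 0.29, adjusted p = 1.5e-05), and it was 1.55 without replicate 1 (adjusted p = 2.49e-05). Relative to OCPs, Gata6 was higher in S9-JAG1+ LMPs by 2.37 (SE 0.41, adjusted p = 0.000381; 1.54 without replicate 1) and in S9-Pαhi LMPs by 1.26 (SE 0.41, adjusted p = 0.0583) on the log2 scale. The latter call was lost without OCP replicate 2 or 3 or S9-Pαhi replicate 2 or 3. The contrast between both LMP populations was 1.11 (SE 0.38, adjusted p = 0.053), under the limit for the fold change, and 0.28 without S9-JAG1+ replicate 1 (adjusted p = 0.433). OCPs and chondroblasts differed by 0.21 (OCPs against chondroblasts -0.21, SE 0.42, adjusted p = 0.745).

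The transcript Gata6os was scarce and, like Gata6, had most reads in S9-JAG1+ replicate 1. It had 62, 15 and 19 counts in the S9-JAG1+ libraries and 10, 21 and 12 counts in S9-Pαhi LMPs. OCPs had 3, 10 and 2 counts, chondroblasts 6, 3 and 1, and S9-SCA-1+ cells 0 and 1. Gata6os was called higher in S9-JAG1+ LMPs (log2 fold change 3.29, SE 0.54, adjusted p = 0.000251; 2.34 without replicate 1, adjusted p = 0.00547) and S9-Pαhi LMPs (1.85, SE 0.63, adjusted p = 0.0757).

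Gata4 and Gata5, the other GATA genes of heart mesoderm, did not share the pattern of Gata6. Gata4 was at 1.54, 2.28 and 2.39 CPM in OCPs and at 1.04, 2.43 and 2.24 CPM in chondroblasts. S9-Pαhi LMPs had 0.773, 0.414 and 0.897 CPM, S9-JAG1+ LMPs 1.24, 0.168 and 0.198 CPM, and S9-SCA-1+ cells 0.105 and 0.142 CPM, with 3 and 4 counts. Gata4 was thus higher in both Sox9-positive populations, and replicate 1 alone lifted the S9-JAG1+ mean. The log2 fold change relative to the 4 other populations was 1.92 in OCPs (SE 0.43, adjusted p = 0.00515) and 1.77 in chondroblasts (SE 0.43, adjusted p = 0.00272), and these 2 populations differed by 0.12 (SE 0.51, adjusted p = 0.878). Gata4 was lower in S9-JAG1+ LMPs (-1.96, SE 0.58, adjusted p = 0.0146; -3.46 without S9-JAG1+ replicate 1) and in S9-Pαhi LMPs (-1.59, SE 0.56, adjusted p = 0.0783) than in OCPs. The latter call was lost when any one of 5 libraries of these populations was left out, all except OCP replicate 1. Without S9-JAG1+ replicate 1, Gata4 was called lower in S9-JAG1+ LMPs than in the 4 other populations (-2.03, adjusted p = 0.00874), where it was not called with it (-0.52, adjusted p = 0.47). Read counts in OCPs were 16.8 times (95% exact interval 7.95 to 42.4) those in S9-SCA-1+ cells after scaling. This interval and those below, over summed reads, cover counting error only and not the spread between libraries.

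Gata5 was nearly absent from chondroblasts. Its level was 0.168, 0.137 and 0 CPM there (5, 4 and 0 counts) and 0.105 and 0.107 CPM in S9-SCA-1+ cells (3 counts each). OCPs had 1.62, 1.09 and 0.977 CPM, S9-Pαhi LMPs 1.59, 0.790 and 1.99 CPM, and S9-JAG1+ LMPs 5.82, 0.880 and 0.436 CPM. The E10.5 mesenchymal populations overlapped each other, and all of their libraries were above all of the chondroblast and S9-SCA-1+ libraries. The log2 fold change in chondroblasts was -2.90 (SE 0.97, adjusted p = 0.0193). Read counts in S9-Pαhi LMPs were 13.2 times those in chondroblasts (95% exact interval 6.66 to 29.6). Gata5 and Gata4 were thus called in opposite directions in chondroblasts. The call of Gata5 in S9-JAG1+ LMPs (2.63, SE 0.60, adjusted p = 0.00279) was lost without replicate 1 (0.78, adjusted p = 0.244). That in S9-SCA-1+ cells (-2.90, adjusted p = 0.0539) was lost without either of the 2 S9-SCA-1+ libraries.

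Gata3 and Gata2 were highest in opposite populations. Gata3 was at 6.05 and 5.59 CPM in S9-SCA-1+ cells, above every other library. S9-JAG1+ LMPs had 4.67, 1.09 and 1.31 CPM and S9-Pαhi LMPs 1.87, 2.33 and 2.09 CPM. Chondroblasts had 0.538, 1.61 and 0.275 CPM and OCPs 0.122, 0.333 and 0.217 CPM (3 to 7 counts). The log2 fold change was 2.58 in S9-SCA-1+ cells (SE 0.43, adjusted p = 0.000304) and -3.30 in OCPs (SE 0.64, adjusted p = 0.00201). The S9-SCA-1+ libraries differed in blood transcripts (146 CPM in replicate 2 and 4118 CPM in replicate 3), and whether this bears on Gata3 was not tested. S9-Pαhi LMPs exceeded OCPs by 3.23 (SE 0.71, adjusted p = 0.00879) and S9-JAG1+ LMPs exceeded them by 3.39 (SE 0.71, adjusted p = 0.00169; 2.43 without S9-JAG1+ replicate 1). S9-JAG1+ LMPs exceeded chondroblasts by 1.52 (SE 0.57, adjusted p = 0.0345), but by 0.55 without S9-JAG1+ replicate 1, when the call was lost, as it was without chondroblast replicate 1 or 3.

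Gata2 was at 7.08, 6.36 and 4.48 CPM in S9-Pαhi LMPs, again above every other library. S9-JAG1+ LMPs had 1.11, 2.35 and 1.35 CPM, OCPs 2.43, 0.999 and 1.74 CPM, chondroblasts 2.02, 2.84 and 2.43 CPM, and S9-SCA-1+ cells 1.64 and 2.39 CPM. Apart from S9-Pαhi LMPs, no pair of populations was called different in Gata2. The log2 fold change in S9-Pαhi LMPs was 1.64 (SE 0.23, adjusted p = 0.000299) against the mean of the other 4, with 1.90 over S9-JAG1+ LMPs (S9-JAG1+ against S9-Pαhi -1.90, SE 0.33, adjusted p = 0.000829), 1.78 over OCPs (SE 0.33, adjusted p = 0.00251) and 1.30 over chondroblasts (SE 0.31, adjusted p = 0.00399; 1.16 and not called without S9-Pαhi replicate 1). Gata2 and Foxf2 were the 2 genes of the 9 called between both LMP populations, in opposite directions.

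Foxf1 and Foxf2, forkhead genes of the same family on different chromosomes, were highest in different populations. Foxf1 was at most 1.06 CPM in any library. It was at 1.06, 0.790 and 0.897 CPM in S9-Pαhi LMPs, and at 0.685, 0.503 and 0.555 CPM in S9-JAG1+ LMPs. Chondroblasts had 0.673, 0.582 and 0.550 CPM, OCPs 0.284, 0.238 and 0.217 CPM (5 to 7 counts), and S9-SCA-1+ cells 0.140 and 0.249 CPM (4 and 7 counts). All S9-Pαhi libraries were above all others, and OCPs overlapped the S9-SCA-1+ cells. Foxf1 was called higher in S9-Pαhi LMPs (log2 fold change 1.33, SE 0.24, adjusted p = 0.00167), and by 1.87 against OCPs (SE 0.33, adjusted p = 0.00202). S9-JAG1+ LMPs and chondroblasts differed by 0.05 (S9-JAG1+ against chondroblasts -0.05, SE 0.30, adjusted p = 0.89). The lower call in S9-SCA-1+ cells was lost without their replicate 2 (adjusted p = 0.113).

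Foxf2 was highest in chondroblasts, with 2.22, 3.15 and 4.12 CPM. It was at 2.06, 1.72 and 1.35 CPM in S9-JAG1+ LMPs and at 0.813, 0.564 and 0.697 CPM in S9-Pαhi LMPs. OCPs had 0.325, 0.238 and 0.760 CPM, and S9-SCA-1+ cells had 1 and 2 counts, at the limit of detection. The chondroblast libraries were above all others, followed by the S9-JAG1+ libraries, while S9-Pαhi LMPs and OCPs overlapped (0.60, SE 0.42, adjusted p = 0.369). Relative to the 4 other populations the log2 fold change was 2.91 in chondroblasts (SE 0.28, adjusted p = 1.11e-06) and 1.80 in S9-JAG1+ LMPs (SE 0.31, adjusted p = 0.000323). OCPs against chondroblasts gave -2.79 (SE 0.38, adjusted p = 0.000146), and S9-JAG1+ against S9-Pαhi LMPs 1.30 (SE 0.37, adjusted p = 0.0229; not called without S9-JAG1+ replicate 1 or S9-Pαhi replicate 2). Read counts in chondroblasts were 58.8 times those in S9-SCA-1+ cells, with a wide 95% exact interval of 19.9 to 287.

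Forkhead genes near both loci were also high in chondroblasts. Foxc1, near Foxf2 on chromosome 13, had a log2 fold change of 4.64 (SE 0.19, adjusted p = 7.36e-10) and was also called higher in OCPs (2.93), unlike Foxf2. Foxc2 and Foxl1, near Foxf1, were called higher in chondroblasts as well (2.36 and 2.14), although Foxf1 itself was not (0.59, adjusted p = 0.0534). Of the 11 neighbouring transcripts tested, 7 were called higher in chondroblasts (11% of all tested genes) and none lower (1.71%). In S9-JAG1+ LMPs 2 were higher (Gata6os and Foxl1, beside 2.88% of all genes). There 1 was lower (Foxc1, beside 7.7%), and also Fendrr without replicate 1. Fendrr, beside Foxf1, had at most 14 counts in any library. It was called higher in OCPs (2.14, adjusted p = 0.0266; 3 to 8 counts) and chondroblasts (2.82, adjusted p = 0.000769; 8 to 14 counts), and it had at most 2 counts in each S9-Pαhi library, where Foxf1 was highest.

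Over all 10 pairs of populations, 56 of the 90 contrasts of the 9 genes were called. The fewest, Foxf2 higher and Gata2 lower, were in S9-JAG1+ against S9-Pαhi LMPs, where 2.58% of all genes were called higher and 4.42% lower (7% together). Foxf2 was not called there (1.15) and Gata4 was called lower (-1.87) without S9-JAG1+ replicate 1. S9-JAG1+ LMPs against OCPs had 5 genes higher (Gata3, Gata6, Hand1, Foxf1 and Foxf2; 3.46% of all genes) and Gata4 lower (9.03%; 12.5% together). Of these, Hand1 (0.91, adjusted p = 0.214) and Foxf1 (1.09, under the limit for the fold change) were not called without S9-JAG1+ replicate 1, nor was Foxf1 without OCP replicate 3. S9-Pαhi LMPs against OCPs had 5 higher (Gata2, Gata3, Gata6, Hand1 and Foxf1; 1.36%) and Gata4 lower (3.48%; 4.84% together). These contrasts share the OCP libraries. OCPs against chondroblasts had Gata5 higher (1.16%) and Gata3, Hand1, Foxf1 and Foxf2 lower (6.6%; 7.77% together). Here the call of Gata3 (-1.87, SE 0.76, adjusted p = 0.0859) was lost when any one of 7 libraries was left out, with log2 fold changes from -2.24 to -0.88, and that of Foxf1 (-1.28, SE 0.34, adjusted p = 0.0137) without OCP replicate 3 or chondroblast replicate 1. Against chondroblasts, S9-JAG1+ LMPs had 3 genes higher (4.17%) and 1 lower (15.2%; 19.4% together), and S9-Pαhi LMPs 3 higher (1.83%) and 2 lower (10.8%; 12.7% together). In the latter, Gata3 depended on chondroblast replicates 1 and 3 and S9-Pαhi replicates 2 and 3, and Gata4 on chondroblast replicates 2 and 3 and S9-Pαhi replicate 2, each being lost without any one of them. Against S9-SCA-1+ cells, 6 genes were called in S9-JAG1+ LMPs (11.4% of all genes in either direction), 6 in OCPs (12.8%) and 7 in chondroblasts (19.4%). In S9-Pαhi LMPs all 9 were called against S9-SCA-1+ cells, 8 of them higher (5.58% of all genes) and Gata3 lower (4.96%). Without S9-SCA-1+ replicate 2, the calls of Gata3, Gata4, Gata5 and Hand1 were lost in S9-Pαhi LMPs, those of Hand1 and Foxf1 in S9-JAG1+ LMPs, of Gata5 and Gata6 in OCPs and of Gata6 and Hand1 in chondroblasts. Without S9-SCA-1+ replicate 3, those of Gata3, Gata4 and Gata5 were lost in S9-Pαhi LMPs and that of Gata5 in OCPs. In S9-Pαhi LMPs, Gata3 was also lost without any one S9-Pαhi library, Gata4 without S9-Pαhi replicate 1 or 3, and Hand1 without S9-Pαhi replicate 2. All libraries of a population stood above all others for Gata6 and Hand2 in S9-JAG1+ LMPs (6.72% of all genes), for Gata2 and Foxf1 in S9-Pαhi LMPs (1.16%), for Foxf2 in chondroblasts (13.3%) and for Gata3 in S9-SCA-1+ cells (10.8%), and below all others for Gata4, Gata6, Hand2 and Foxf2 in S9-SCA-1+ cells (10.1%).

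**Figure D4:**
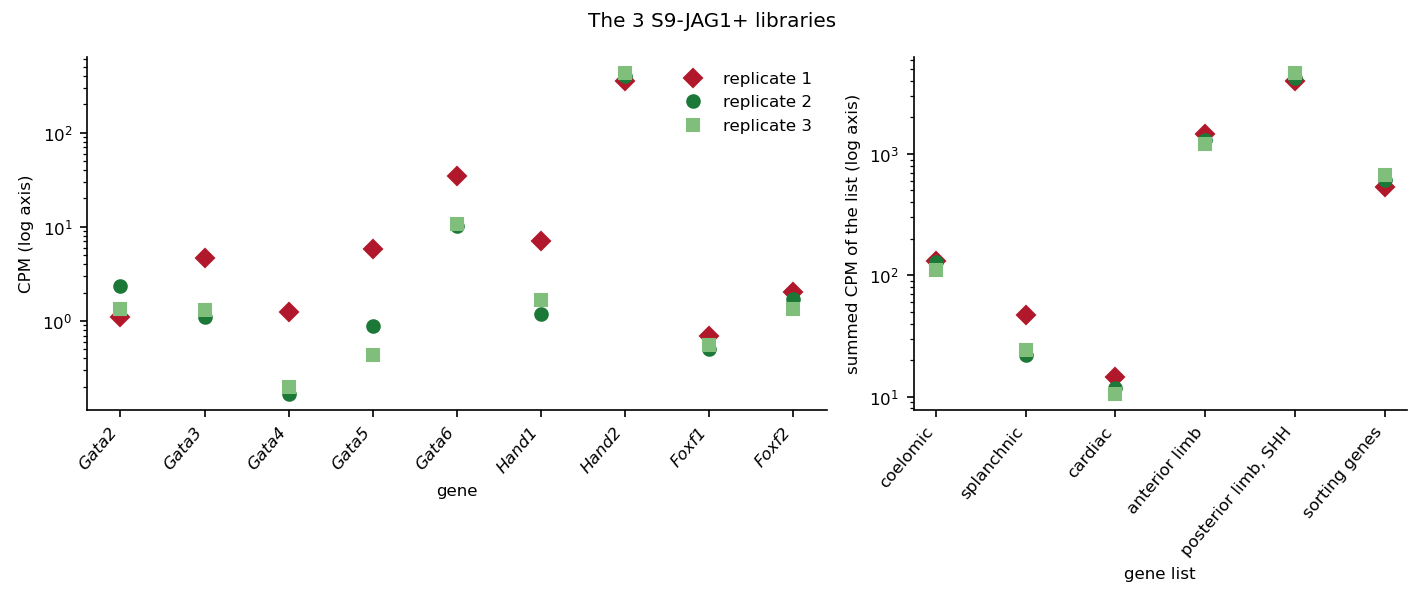
Levels (CPM, log axis) in the 3 S9-JAG1+ libraries. The left plot shows the 9 genes and the right one the summed level of 6 whole gene lists. Replicate 1 (red diamonds) exceeds both other libraries for 7 of the 9 genes (all but Gata2 and Hand2). The share of all genes for which it does so was not determined. Its splanchnic sum is 46.7 against 22.2 and 24.1 CPM, while the posterior and sorting gene sums are below both.

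The genes that stood out in S9-JAG1+ replicate 1 were thus not all of the 9. Relative to the mean of the other 2 libraries, Gata5 was 8.85-fold, Gata4 6.79-fold, Hand1 5.01-fold, Gata3 3.89-fold and Gata6 3.34-fold higher in replicate 1. Foxf2 (1.34-fold) and Foxf1 (1.30-fold) were slightly above both others, and Gata2 (0.603-fold) and Hand2 (0.850-fold) below both. The coelomic, splanchnic and cardiac marker levels of this library are given above, and their part in these values was not tested.

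Of the genes that work with the 9 factors, the GATA cofactor list and the bHLH list had calls in both directions. Beside these and the following lists, 2.88% of all tested genes were called higher and 7.7% lower in S9-JAG1+ LMPs. The shares were 1.53% and 2.31% in S9-Pαhi LMPs and 3.37% and 1.64% in OCPs. Chondroblasts had 11% higher and 1.71% lower, and S9-SCA-1+ cells 4.46% and 6.8%. Of 9 cofactors tested, Lmo2, a bridging factor of GATA complexes, was called higher in S9-JAG1+ LMPs (179 ± 28.5 CPM against means of 3.86 to 11.0 CPM in the other populations, SD, n = 3; log2 fold change 4.71, adjusted p = 4.39e-12) and lower in OCPs and S9-SCA-1+ cells. Tbx5 and Mef2c, which cooperate with GATA factors in heart cells, were higher in chondroblasts (1.72 and 2.77) and lower in S9-SCA-1+ cells (-3.81 and -1.65). Zfpm1 (FOG1), a direct GATA cofactor, was higher in S9-SCA-1+ cells (1.37, adjusted p = 1.13e-06), where Gata3 was also high. No cofactor was called in S9-Pαhi LMPs; Chd4 and Ldb1, with the highest levels of the list, had log2 fold changes of 0.11 and -0.07. The median of the list lay between -0.65 and 0.17 over the 5 populations.

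Of 9 bHLH and ID genes tested, Twist1, which dimerises with HAND2, was higher in S9-Pαhi LMPs (1.25, adjusted p = 1.25e-06) and lower in S9-SCA-1+ cells (-1.65). The E-protein inhibitor Id2 was lower in S9-JAG1+ LMPs (-1.34) and higher in S9-SCA-1+ cells (1.39). Id4 was higher in chondroblasts (2.44) and lower in S9-SCA-1+ cells (-3.07), as was Id1 in the latter (-1.62). None was called in OCPs, where Tcf3 and Tcf12, which encode E-proteins, had log2 fold changes of 0.01 and 0.13.

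The genes of posterior limb bud mesenchyme and of SHH signalling, which are coexpressed with or lie downstream of Hand2, were called higher in S9-JAG1+ LMPs for 14 of 20 and lower for 2, with a median log2 fold change of 1.67. Shh (63.6 ± 10.1 CPM, SD, n = 3; 5.84 on the log2 scale, adjusted p = 4.39e-12), Hoxd13 (4.50), Hoxd12 (3.30) and Sall1 (2.77) changed most. S9-Pαhi LMPs had 5 higher, with Shh (3.36) and Tbx2 (2.85) first, and 1 lower (median 0.44). OCPs had 1 higher and 7 lower (median -0.25). Shh was at 0.219 ± 0.0176 CPM there, and Hand2 at 191 ± 11.9 CPM (SD, n = 3). Chondroblasts had 4 higher and 5 lower, with Hoxd13 higher (2.35) and Shh lower (-4.49), and Hand2 at 281 ± 43.5 CPM (SD, n = 3). In S9-SCA-1+ cells 13 were lower and none higher. Without S9-JAG1+ replicate 1, 15 were higher in S9-JAG1+ LMPs and the other counts of this list did not change. Hand2 levels of over 180 CPM thus accompanied Shh means of 0.202 to 63.6 CPM in the 4 mesenchymal populations.

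The anterior limb bud genes took other directions. In S9-JAG1+ LMPs 8 of 16 were lower, with Tbx18 (-2.19) and Meis1 (-2.12) among the largest. In S9-Pαhi LMPs 10 were higher and none lower, led by Pax1 (3.42) and Alx4 (2.27), in OCPs 6 were higher and 2 lower, and in chondroblasts 3 were higher and none lower. In S9-SCA-1+ cells 11 were lower and none higher. When S9-JAG1+ replicate 1 was left out, 9 were lower in S9-JAG1+ LMPs and 11 higher in S9-Pαhi LMPs.

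**Figure D5:**
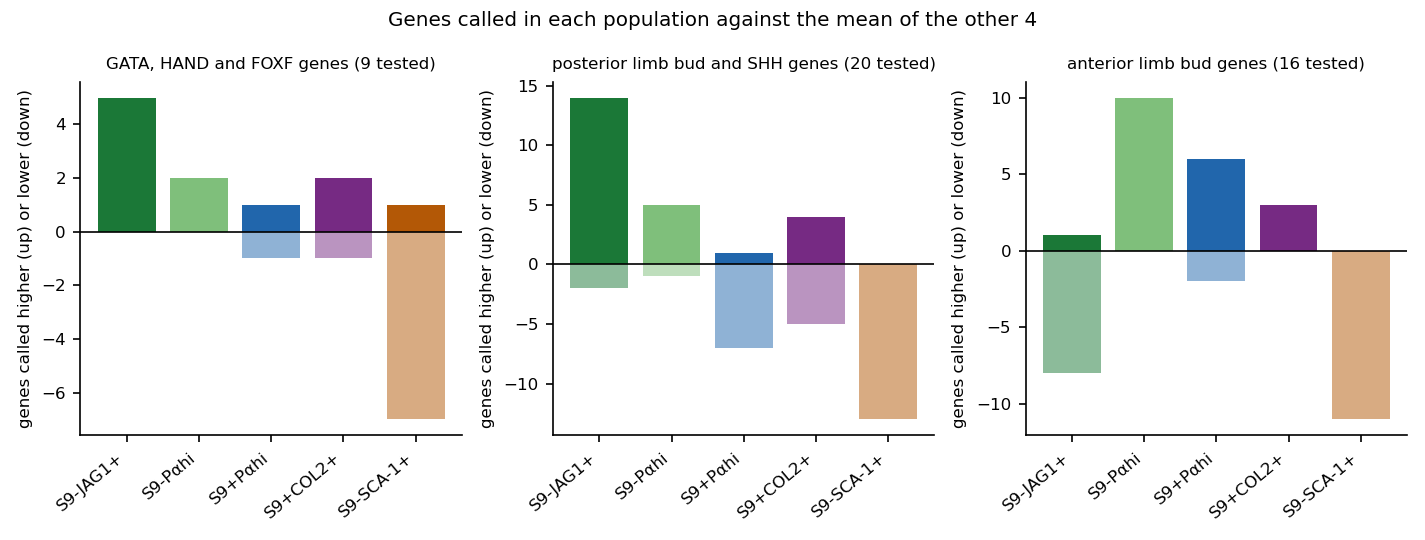
Number of genes called higher (upward, full colour) and lower (downward, pale) in each population relative to the 4 others, for the 9 genes, 20 posterior and SHH genes and 16 anterior genes. S9-JAG1+ LMPs have 5 and 14 higher in the first 2 lists, and S9-SCA-1+ cells 7, 13 and 11 lower.

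Lists for the tissues in which GATA, HAND and FOXF genes are otherwise expressed gave mixed counts. Of 11 coelomic genes tested, 3 were higher (Wt1, Upk3b and Bnc1) and 7 lower in S9-JAG1+ LMPs, 2 higher in S9-Pαhi LMPs, 3 higher in OCPs, 6 higher and 2 lower in chondroblasts, and 6 lower in S9-SCA-1+ cells. Of 9 splanchnic genes, 2 were higher (Wnt2 and Foxl1) in S9-JAG1+ LMPs, 2 lower in S9-Pαhi LMPs, 3 higher and 1 lower in OCPs, 4 higher in chondroblasts, led by the cartilage gene Nkx3-2, and 3 higher and 3 lower in S9-SCA-1+ cells. Of 10 cardiac genes, 2 were higher (Tbx20 and Tnni1) and 4 lower in S9-JAG1+ LMPs, 1 higher and 1 lower in OCPs, 5 higher in chondroblasts and 3 higher and 1 lower in S9-SCA-1+ cells. None was called in S9-Pαhi LMPs. Without S9-JAG1+ replicate 1, no coelomic (of 10) or cardiac (of 9) gene was called higher in S9-JAG1+ LMPs, while Wnt2 and Foxl1 were.

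Among the other cell types, all 12 blood genes tested were higher in S9-SCA-1+ cells, most strongly Hbb-bh1 (6.10), and 5 were lower in S9-JAG1+ LMPs (none without replicate 1). In the endothelial list at most 1 of 12 genes was higher in any population, and at most 3 were lower. Over the populations, 1.53% to 11% of all tested genes were called higher and 1.64% to 7.7% lower. Of 11 surface ectoderm and AER genes, 7 were higher and 1 lower in chondroblasts, 3 were higher and 5 lower in S9-SCA-1+ cells, and 2 were called in each direction in S9-JAG1+ LMPs. Of 11 genes of sympathetic and neural cells, in which Hand2 and Gata3 are also expressed, 5 were higher in chondroblasts, and 1 was higher (Isl1) and 3 lower in S9-SCA-1+ cells. Of the 9 myoblast genes, all were higher in S9-SCA-1+ cells, led by Pax3 (9.84), and all lower in S9-JAG1+ LMPs.

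As a description, the pattern of each gene over the 14 libraries (log2 CPM) was compared with that of 11882 other genes whose mean was 1 log2 CPM or more. The closest by Pearson correlation were Kbtbd11, Bmp7 and Hoxd10 for Hand2 (each r = 0.99), Adora2b for Gata6 (0.94), Efemp1 for Gata4 (0.95), Emilin3 for Foxf2 (0.95), Tbx2 for Foxf1 (0.92), Col13a1 for Gata3 (0.91), Lix1 for Gata5 (0.90), Glis1 for Gata2 (0.87) and Cox4i2 for Hand1 (0.85). Among the 9 genes, Hand1 and Foxf1 were most alike (r = 0.81), then Hand2 and Foxf2 (0.80) and Hand2 and Gata6 (0.77). Gata3 and Gata4 were least alike (-0.65). The libraries share their populations. The low S9-SCA-1+ level of 7 of the 9 genes (all but Gata2 and Gata3) enters the values of those genes. The high levels in S9-JAG1+ replicate 1 enter the values of Gata3, Gata4, Gata5, Gata6 and Hand1.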

How the data were processed

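The authors deposited whole-number read counts per gene for 14 libraries, together with a gene length in bases. According to their methods, polyadenylated RNA gave single-end reads, which were aligned to mm10 with STAR, and reads starting in exons of RefSeq mRNAs were counted with QuasR. Whether strand was used is not given in the sources used here. Entrez identifiers were matched to RefSeq symbols (24374 of 24454; the other 80 held 0.358% of the counts).

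Counts were filtered with filterByExpr, scaled by TMM and fitted with edgeR 4.0.16 (quasi-likelihood test) in R 4.3.3, with a mean per population and all libraries in one fit (biological coefficient of variation 13.4%). Each standard error is the ratio of the log2 fold change to the root of the F statistic. Levels per kilobase used the deposited lengths, and log2 CPM a prior count of 2. The procedure was tested on simulated data. DESeq2 1.42.0, other filters, limits and scaling, a replicate block and leaving out each library were the alternatives. Ratios of low counts have 95% exact binomial intervals on summed reads, which cover counting error only. Promoters came from RefSeq. Figures were drawn with matplotlib 3.10.9.

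The 9 genes, the gene lists and the rule for naming genes were chosen with earlier results of these data known. All 9 genes are named, with up to 4 genes of a list (the largest changes among those called, or without a call the 2 with the highest level), sorting genes, neighbouring transcripts and the genes with the most similar pattern. Other genes of S9-JAG1+ replicate 1 and the defining markers were named after their values were seen. Results of 2 genes of the lists are not reported here, although the genes stay in the counts of their lists.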

Additional observations from a re-analysis of the deposited data

How the results depend on the processing

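The number of calls of the 9 genes with each population set against the 4 others (20) was 17 to 24 when a library was left out, and 18 to 23 under the other alternatives. For pairs (56) these ranges were 45 to 59 and 48 to 57, and for the related lists (323) 301 to 344 and 281 to 424. Leaving S9-SCA-1+ cells out of the means gave 14 calls in place of 12, and 13 when S9-JAG1+ replicate 1 was also left out; both were chosen after the data had been seen. The libraries share replicate numbers, and no source says that a number marks a shared litter or day. Deviations from the population means had a median r of -0.0048 over 26 same-numbered pairs (range -0.1808 to 0.3083, 4 over 0.1). Over 52 pairs with different numbers it was -0.003 (range -0.3118 to 0.4126, 6 over 0.1). These values cannot tell whether some libraries shared a pool of limb buds. With the replicate block the counts were 22, 57 and 316. Of the 76 called contrasts of the 9 genes, 48 were called under all alternatives in which the gene was tested and 28 were lost under at least 1; none changed direction. The calls of Gata5 and Hand1 in S9-JAG1+ LMPs depended on replicate 1, and without S9-SCA-1+ replicate 2, which leaves 1 library assumed to vary like the others, Hand1 and Foxf1 were not called in S9-SCA-1+ cells. The change of scaling to DESeq2 size factors changed none of the counts of the 9 genes. The depth limits Foxf1, Gata3 in OCPs, Gata5 in chondroblasts and all S9-SCA-1+ values under 0.149 CPM.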
